A study of Mus musculus with 3 samples.

Results

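The genes of the AP-1 transcription factor were examined in a map of H3K4me1, histone H3 monomethylated at lysine 4, from mouse pancreatic islets exposed to proinflammatory cytokines. The 10 genes were Fos, Fosb, Fosl1, Fosl2, Jun, Junb, Jund, Atf3, Batf and Maff, out of 22350 protein-coding genes on chromosomes 1 to 19 and X. They were chosen by name, as members or partners of the factor. For each gene, the enriched regions that overlapped it or lay within 50 kb of any of its transcription start sites (TSS) in the GENCODE M1 annotation of the mm9 genome were collected, which gave 88 of the 65709 deposited regions. No region was in reach of more than one of the genes.

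The map came from 1 library of hand-picked islets, pooled over at least 10 mice. By the labels these were CD1 mice of 8 to 12 weeks, while the study's methods name ICR mice of 8 to 10 weeks. After a few hours of recovery the islets were cultured for 4 days in RPMI with the cytokines TNFα at 0.16 ng/ml, IL-1β at 0.25 ng/ml and IFNγ at 1.6 ng/ml, and the DNA of 4 chromatin immunoprecipitations was pooled before sequencing. The RNA-seq samples and the mark in untreated islets were not analysed here, so the values describe where the mark stood after cytokine exposure and not what changed. With 1 library there is no spread between replicates, and no difference below was tested. The deposited list holds positions alone, with no read count, height or p-value, so the depth of the library is unknown and a region missing from the list cannot be told apart from one below the calling threshold.

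AP-1 is a dimer of basic leucine zipper (bZIP) proteins of the Fos, Jun, Atf and Maf families that binds sequences such as TGANTCA. Several of its genes are immediate-early genes, which are transcribed within minutes of a stimulus without new protein synthesis, and the JNK and p38 kinases, among others, act on both the genes and the proteins. IL-1β and TNFα are classical activators of these kinases and of NF-κB, and H3K4me1 typically marks enhancers and the flanks of active promoters, whose centres carry more highly methylated forms of the same lysine.

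In these islets 7 of the 10 genes had at least 1 TSS inside an H3K4me1 region, where 39.1% of all protein-coding genes did. A further 2, Fosl2 and Jun, had no covered TSS but a region within 2 kb on each side of one, called flanked here, against 8.16% of all genes. Junb alone had neither, with a region on its upstream side 384 bp away and the next one downstream 2817 bp away. All 10 genes had at least 1 region in reach, as did 82.3% of protein-coding genes. When the first TSS was used alone, which is the annotated TSS farthest upstream, 6 genes were covered against 31.1% of all genes, and 3 were flanked against 9.9%.

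Sequences upstream of the first TSS were read from the mm9 genome to show the letters behind these start sites. The genes shown are the 5 whose 400 upstream bases held a searched site, plus a stretch behind Junb, and capitals mark the sites. All were searched on both strands for TGANTCA, where N is any base, for TGACGTCA, the cyclic AMP response element, for the CArG box, the site of serum response factor, and for the consensus κB site of NF-κB. Coordinates are mm9 and each sequence runs 5′ to 3′ on the strand of its gene. Fos is at chr12:86814508-86814657 on the plus strand, from −332 to −183 relative to the first TSS, and Fosb at chr7:19895545-19895694 on the minus strand, from −300 to −151. Both hold a CArG box followed by a κB site.
Fos: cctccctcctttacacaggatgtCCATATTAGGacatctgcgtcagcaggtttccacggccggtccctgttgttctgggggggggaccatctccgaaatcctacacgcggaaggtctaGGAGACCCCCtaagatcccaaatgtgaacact
Fosb: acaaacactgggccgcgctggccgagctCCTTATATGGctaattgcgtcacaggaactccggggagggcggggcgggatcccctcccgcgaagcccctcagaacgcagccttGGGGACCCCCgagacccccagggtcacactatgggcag
Fosl2 is at chr5:32438593-32438742 on the plus strand, from −252 to −103 relative to the first TSS, with a pair of κB matches on opposite strands that overlap by all but 1 base. Batf is at chr12:87027324-87027473 on the plus strand, from −295 to −146, with 1 κB site.
Fosl2: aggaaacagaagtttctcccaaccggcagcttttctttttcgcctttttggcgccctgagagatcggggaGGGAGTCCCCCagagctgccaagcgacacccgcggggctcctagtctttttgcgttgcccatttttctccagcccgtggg
Batf: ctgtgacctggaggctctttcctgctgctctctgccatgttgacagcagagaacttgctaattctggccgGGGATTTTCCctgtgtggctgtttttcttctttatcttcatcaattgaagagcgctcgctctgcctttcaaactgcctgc
Maff is at chr15:79177821-79177970 on the plus strand, the last 150 bases before the first TSS, and holds the TGACGTCA site.
Maff: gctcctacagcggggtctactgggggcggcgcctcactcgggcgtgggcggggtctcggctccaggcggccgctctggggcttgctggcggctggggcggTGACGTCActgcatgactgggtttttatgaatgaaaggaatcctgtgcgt
The stretch behind Junb is at chr8:87500373-87500572 on the minus strand, from 2045 to 2244 bp after the TSS and beginning 239 bp past the 3′ end of the gene. It was picked because it held at least 4 matches, and it was cut just beyond the outermost ones. Its CArG box and 4 κB sites in 200 bases therefore follow from that choice and are no measure of density.
Junb downstream: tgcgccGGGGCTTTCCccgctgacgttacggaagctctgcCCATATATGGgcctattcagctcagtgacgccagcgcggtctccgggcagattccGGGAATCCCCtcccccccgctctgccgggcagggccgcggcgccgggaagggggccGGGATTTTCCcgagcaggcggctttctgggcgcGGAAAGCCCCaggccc

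A CArG box was present in the 400 upstream bases of 2 of the 10 genes, Fos at −309 and Fosb at −272 bp from the first TSS, and in 2.25% of 22342 protein-coding genes searched in the same way. In the Fos promoter this element is the well known serum response element. A κB site was present in 4 of the 10, namely Fos, Fosb, Fosl2 and Batf, and in 6.12% of all genes. The κB pattern is rich in G and C. The median ratio of observed to expected CpG at the first TSS was 0.741 for the AP-1 genes and 0.549 for all. The part of base composition in the κB counts was not tested. TGACGTCA was present in 1, Maff, at −50 bp from the first TSS, and in 2.1% of all. TGANTCA was present in 0 of the 10 and in 9.51% of all. Only exact matches were counted, so a near match such as TGACATCA, upstream of the first TSS of Jun, was not. A match describes the letters alone and does not show that a factor was bound there. The CArG and κB searches and the stretch behind Junb were chosen after the positions of the regions had been seen.

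**Figure D1:**
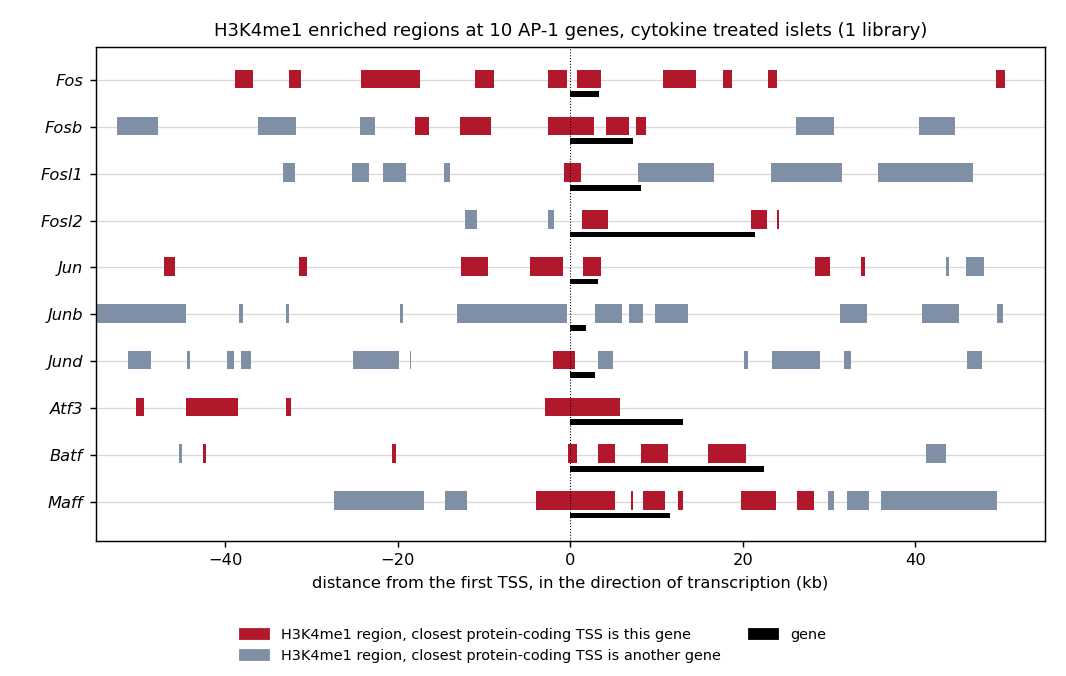
H3K4me1 regions (boxes) of the 10 AP-1 genes by distance from the first TSS in kb, in the direction of transcription, with the gene as a black bar; red boxes have the gene's own TSS as their closest protein-coding TSS and grey boxes that of another gene. All 10 regions of Fos are red and all 11 of Junb are grey, and the widest box is the 13.4 kb region downstream of Maff.

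The 10 genes had a median of 9.5 regions in reach, from 4 at Atf3 to 12 at Jund, where the median of all protein-coding genes was 5 with quartiles of 2 and 8. When a region was counted only for the gene with the closest TSS of any transcript, both medians were 1, and with the closest protein-coding TSS they were 4.5 and 1. The covered length, the length of the gene and of the 50 kb on each side of its TSS that lay inside regions, had a median of 23.3 kb and ran from 7.2 kb at Fosl2 to 48.4 kb at Maff, against 8.2 kb over all genes. As a share of that window it had a median of 23.0%, against 6.86% with quartiles of 1.45% and 15.1%. Fosl2, at 7.2%, lay close to the middle of all genes and above 51.3% of them. Maff, at 48.1%, lay above 99.6% of them, and Fosl1 (36.8%), Junb (36.0%) and Fosb (31.4%) lay above 95.8% or more. Fos (24.0%), Jund (22.1%), Atf3 (16.0%), Jun (15.8%) and Batf (14.2%) came between, the last above 72.8% of all genes. The genes thus ranged from the middle of the distribution to its far end. Islets hold several cell types, and from such bulk material a mark present in few cells cannot be told apart from a mark at a low level in many.

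**Figure D2:**
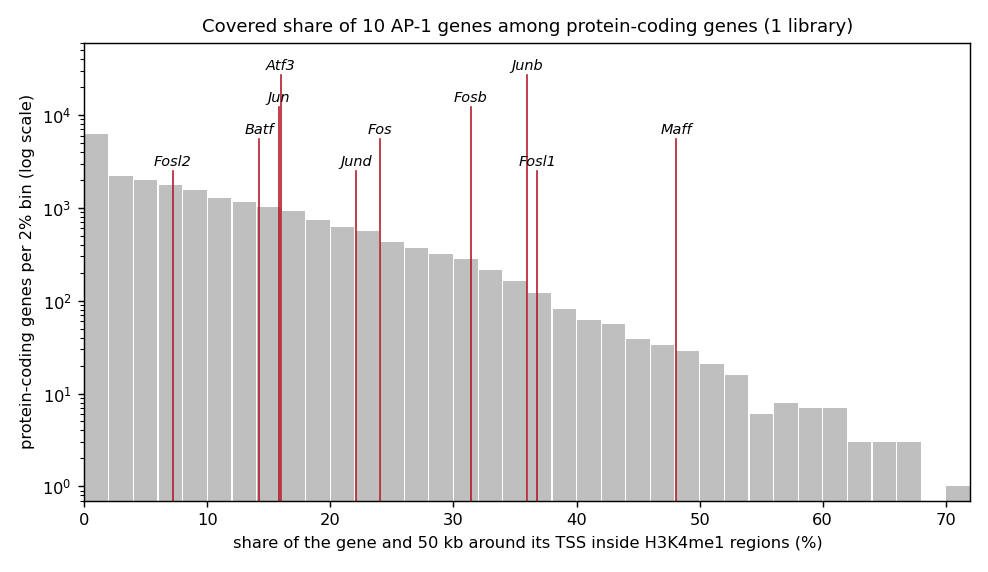
Share of the gene and of the 50 kb around its TSS inside H3K4me1 regions (%, horizontal axis) for protein-coding genes, as the number of genes per 2% bin (grey bars, log scale), with the 10 AP-1 genes as red lines whose heights carry no value. The AP-1 genes run from 7.2% at Fosl2 to 48.1% at Maff, and the median of all genes is 6.86%.

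Among the Fos family, Fos encodes the founding member, which needs a Jun partner to bind DNA. It lies on the plus strand at chr12:86814840-86818223, with no other protein-coding TSS within 50 kb, and all 10 of its regions had Fos as the closest gene. Its first TSS was not covered: the upstream region, chr12:86812201-86814400, ended 440 bp before it, and the next, chr12:86815601-86818400, began 761 bp after it and ran over the gene body. Fos counted as covered because 2 further annotated TSS, at 801 and 1021 bp inside the gene, lay in that second region. The uncovered stretch of 1200 bp held both the CArG box and the κB site printed above. The other regions lay outside annotated genes, the widest of them 6.8 kb (chr12:86790601-86797400) and between 24239 and 17440 bp upstream, followed by one of 3.8 kb downstream (chr12:86825601-86829400).

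Fosb encodes a close relative with its own transactivation domain and lies on the minus strand at chr7:19888070-19895394. Its single TSS was covered by a region of 5.4 kb, chr7:19892601-19898000, which reached from 2606 bp before to 2793 bp after it and included the CArG box and κB site. A second region of 2.6 kb covered the 3′ part of the gene. Of its 10 regions, 5 had Fosb as the closest protein-coding gene, and the next widest regions lay in or beside its neighbours: 4.8 kb over Cd3eap and Ppp1r13l, and 4.4 kb each in Ercc1 and over Ppm1n and Rtn2. There were 6 other protein-coding genes with a TSS within 50 kb.

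Fosl1 and Fosl2 encode Fra-1 and Fra-2, which lack the strong activation domain of Fos. Fosl1, on the plus strand at chr19:5447703-5455945, had its TSS covered by a region of 2.0 kb, chr19:5447001-5449000. Its covered length of 36.8 kb lay mostly elsewhere, in regions of 11.0 kb over Cfl1 and Mus81, 8.8 kb over the 3′ end of Fosl1 with Ccdc85b and Fibp, and 8.2 kb over Efemp2, and only the region at the TSS had Fosl1 as its closest gene. With 9 other protein-coding genes having a TSS within 50 kb, it had the most crowded surroundings of the 10. Within 5 kb of the TSS Fosl1 had 2.0 kb covered, the least of the 10 genes and above 59.2% of all genes.

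Fosl2, on the plus strand at chr5:32438845-32460204, had 5 regions and the shortest covered length of the 10. Its TSS lay in an uncovered stretch of 3200 bp (chr5:32437001-32440200), with a region of 0.8 kb ending 1845 bp upstream and one of 3.0 kb, chr5:32440201-32443200, beginning 1356 bp downstream in the gene's intron. Next by width came one of 1.8 kb over the 3′ end of the gene and one of 1.4 kb, 10845 bp upstream. Besides the κB matches shown above, the uncovered stretch held a κB match from 97 to 106 bp after the TSS and 1 TGACTCA site, at −618 bp.

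**Figure D3:**
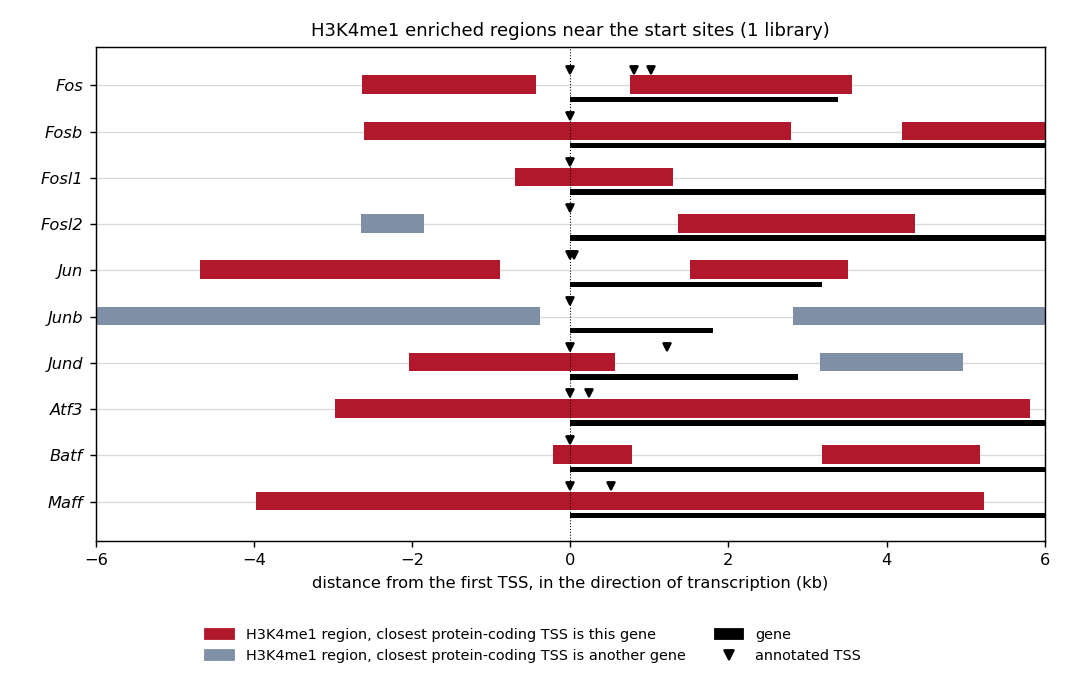
H3K4me1 regions (boxes, coloured by closest protein-coding TSS as in the wider map) within 6 kb of the first TSS of the 10 AP-1 genes, in kb in the direction of transcription; triangles are annotated TSS and black bars the genes. The first TSS of Fos, Fosl2, Jun and Junb stand in gaps of 1.2, 3.2, 2.4 and 3.2 kb, and the other 6 stand inside a region.

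Among the Jun family, Jun encodes the member that can also bind DNA as a homodimer and is a substrate of JNK. It lies on the minus strand at chr4:94715725-94718913. Both of its TSS, 51 bp apart, stood in an uncovered stretch of 2400 bp (chr4:94717401-94719800) over the 5′ part of this single-exon gene. A region of 3.8 kb, chr4:94719801-94723600, ended 888 bp upstream, and one of 2.0 kb, chr4:94715401-94717400, began 1513 bp downstream and covered the 3′ part of the gene. A region of 3.2 kb stood farther upstream, 9488 bp from the first TSS. No other protein-coding TSS lay within 50 kb, and 7 of the 9 regions had Jun as the closest protein-coding gene. None did when noncoding transcripts were counted too, since BC042782 upstream and Gm12703 and others downstream have closer TSS.

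Junb encodes a weaker activator that can oppose Jun. The gene is on the minus strand at chr8:87500811-87502617 and lay whole inside an uncovered stretch of 3200 bp (chr8:87499801-87503000), between a wide region and a narrower one. The one upstream, chr8:87503001-87515800, was 12.8 kb wide and lay over Hook2, and the one downstream, chr8:87496601-87499800, was 3.2 kb wide and overlapped Prdx2. Another wide region, of 12.6 kb, lay over 2310036O22Rik and Asna1, and the next by width, of 4.2 kb, overlapped Mast1. All 11 regions had another gene as their closest, and 8 other protein-coding genes had a TSS within 50 kb. Within 5 kb of its TSS 6.8 kb was covered, above 97.0% of all genes, although no base of the gene itself was. The uncovered stretch held 1 CArG box and 5 κB sites, of which the CArG box and 4 of the κB sites stood in the 200 bases printed above. Such stretches were not searched at genes other than the AP-1 genes, so these counts have no comparison.

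Jund encodes the member that is usually present before stimulation. It lies on the plus strand at chr8:73221638-73224515, and its 2 TSS differed. The first was covered by a region of 2.6 kb, chr8:73219601-73222200, which ended 562 bp after it. The second, 1219 bp further on, stood in an uncovered stretch of 2600 bp, 657 bp after that region and 1944 bp before the next. The first TSS has few CpG dinucleotides for its base composition, with 0.239 of the number expected in the 500 bp on each side, the lowest of the 10 genes. The widest of its 12 regions were 5.6 kb and 5.4 kb, in Pde4c and Lsm4, and 1 of the 12 had Jund as its closest gene.

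Of the partners, Atf3 encodes a stress-induced bZIP protein that often represses. It lies on the minus strand at chr1:192994175-193007219. It had the fewest regions, 4, but both of its TSS were inside one of 8.8 kb, chr1:193001401-193010200, that reached from 2981 bp before the first TSS to 5818 bp after it. Of the 10 kb around the first TSS 7.98 kb was covered, above 98.9% of all genes. The other 3 regions lay between 32382 and 50381 bp upstream, of 6.0 kb over the noncoding gene D730003I15Rik, 1.0 kb and 0.6 kb, and all 4 had Atf3 as their closest protein-coding gene.

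Batf encodes a bZIP protein without an activation domain that pairs with Jun proteins and interferon regulatory factors and is known best from lymphocytes. It lies on the plus strand at chr12:87027619-87050037, on the same chromosome as Fos, with their first TSS 213 kb apart. Its TSS was covered by a region of 1.0 kb, chr12:87027401-87028400, that began 218 bp upstream, so that the κB site between −225 and −216 bp straddled its upstream edge. Within the introns stood 3 further regions, of 2.0, 3.2 and 4.4 kb. A region of 2.4 kb lay past the gene, and those more than 20 kb upstream were 0.4 kb each. Between the Fos and Batf genes 14 regions covered 13.8 kb of 209 kb, and Jdp2, which encodes another AP-1 partner and lies between them, had both TSS covered.

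Maff encodes a small Maf protein, which has no activation domain and pairs with larger bZIP partners. It lies on the plus strand at chr15:79177971-79189502. Both TSS were inside a region of 9.2 kb, chr15:79174001-79183200, from 3970 bp before the first to 5229 bp after it, and 3 further regions stood in the gene or just past its end. The widest region of all 88, of 13.4 kb (chr15:79214001-79227400), covered part of Tmem184b downstream, and one of 10.4 kb (chr15:79150601-79161000) lay over Pla2g6 upstream. Of its 11 regions 6 had Maff as the closest protein-coding gene. Within 5 kb of the first TSS 8.97 kb was covered, the most of the 10 genes and above 99.5% of all.

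Close to the first TSS, the 10 genes had a median of 2.28 kb covered within 2 kb on each side, against 0.654 kb over all protein-coding genes. Within 5 kb the medians were 5.4 kb and 1.2 kb, and within 10 kb they were 6.24 kb and 1.8 kb. At 2 kb upstream 8 of the 10 genes stood inside a region, where 12.4% of all genes did. At the first TSS itself 6 did, and 1 kb downstream 5 did, against 32.5% of all genes. At 5 kb upstream 1 did, against 7.75%. The value at 2 kb upstream was the highest on that side, with 7 genes at 200 bp to either side of it, and 8 genes were again inside a region at 3200 and 3400 bp downstream. With 10 genes, each step is 1 gene.

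**Figure D4:**
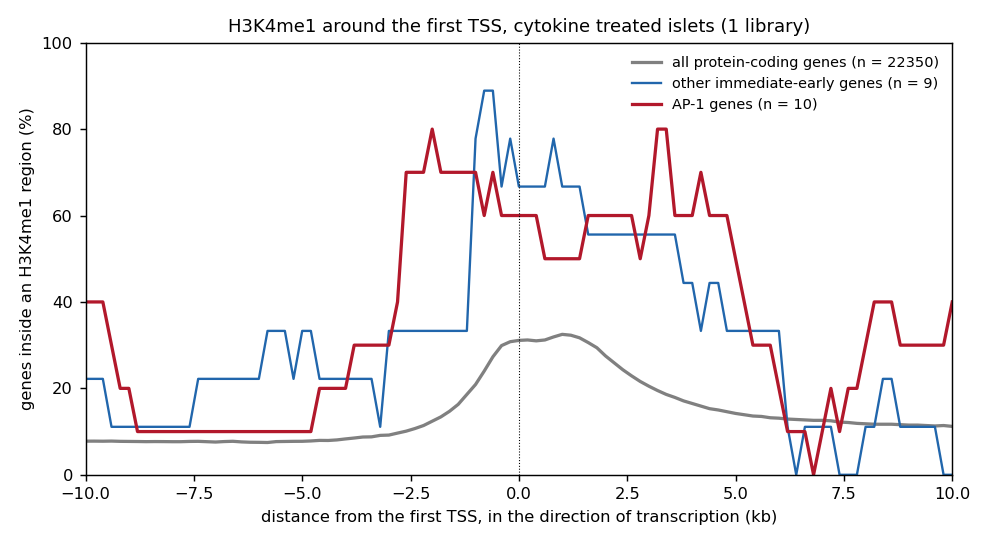
Share of genes inside an H3K4me1 region (%, vertical axis) by distance from the first TSS in kb, in the direction of transcription, for the 10 AP-1 genes (red), 9 other immediate-early genes (blue) and 22350 protein-coding genes (grey). The red line is at 80% at 2 kb upstream and 60% at the TSS, and the grey line is at 12.4% and 31.1% at the same places.

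Genes with more CpG dinucleotides at the first TSS had it covered or flanked more often than all genes. The median ratio of observed to expected CpG within 500 bp of the first TSS was 0.741 for the 10 genes and 0.549 for all. Among the 16453 genes at or above the lowest of the 10, 40.1% had the first TSS covered and 13.3% flanked, where the 10 had 6 and 3. That limit is set by Jund, and Batf is also low at 0.34. Without both, the other 8 lay at or above 0.712, with 4 first TSS covered and 3 flanked, and among the 7332 genes at or above that value 40.7% were covered and 23.4% flanked. Within the AP-1 genes the ratio did not separate the states: the uncovered first TSS ran from 0.724 at Junb to 0.91 at Fosl2, and the covered ones from 0.239 at Jund to 0.888 at Maff. The uncovered stretches of the flanked genes Fos, Fosl2 and Jun, of 1200, 3200 and 2400 bp, compared with a median of 1600 bp over all genes with a flanked first TSS (quartiles 1200 and 2200 bp).

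The 88 regions themselves ranged in width from 200 to 13400 bp around a median of 2000 bp (quartiles 1000 and 3800 bp). Regions in reach of any protein-coding gene had a median of 1400 bp. Of the 88, 48 were at least 2 kb wide, which is 54.5% against 36.7% of the regions in reach of any protein-coding gene, and 5 were wider than 10 kb, which is 5.68% against 2.32%. By place, 17 overlapped the AP-1 gene itself, 41 another gene only and 30 no annotated gene. There were 39 upstream of the first TSS, 43 downstream and 6 across it. For 43 of the 88 the closest protein-coding TSS was that of the AP-1 gene, and for 26 it was the closest TSS of any annotated transcript. The closest TSS does not show which gene a region acts on.

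TGANTCA, searched for the site of AP-1 itself, had 84 matches in 48 of the 88 regions, which is 54.5% against 43.1% of all regions searched. Any base was allowed in the middle, so TGAATCA and TGATTCA count here beside TGACTCA and TGAGTCA. Per kb of sequence the order was the other way round, with 0.318 matches in the regions of the AP-1 genes and 0.366 in all regions, and the former are wider. By gene the matches ran from 1 at Fosl2 and 3 each at Fos and Batf to 20 at Junb. Matches to the κB site stood in 30 of the 88 regions, 34.1% against 18.0%, and at 0.212 per kb against 0.124. The CArG box had 17 matches in 14 of the regions, 15.9% against 9.54%, and at 0.0644 per kb against 0.0511, and TGACGTCA had 2, in 2.27% of the regions against 2.17% and at 0.00758 per kb against 0.0107. The regions of the AP-1 genes contained 51.2% G and C against 46.6% in all regions, and the part of this difference in the κB counts was not tested.

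Genes of the same system gave the following counts. Of 7 other bZIP partners, 5 had a covered TSS, namely Jdp2, Batf2, Batf3, Mafg and Mafk, while Atf7 was flanked and Atf2 neither. Their median covered share was 10.3%. Of 7 kinases of the pathways that act on AP-1, 5 had a covered TSS, which were Mapk8 and Mapk10 of the JNK group, Mapk3, and the JNK activators Map2k4 and Map2k7. Mapk14, which encodes a p38 kinase, was flanked and Mapk9 neither. At the kinases the first TSS was covered in 2 of 7 (28.6%, against 31.1% of all genes), Mapk8 and Mapk10, while Mapk3, Map2k4 and Map2k7 counted through further TSS, and their median covered share was 16.2%. Of 9 other immediate-early genes, 6 were covered (Egr1, Egr2, Egr3, Ier3, Zfp36 and Nr4a1) and 3 flanked (Ier2, Dusp1 and Klf6), with a median covered share of 17.5%. These counts stand beside the 39.1% of all protein-coding genes with a covered TSS and their median covered share of 6.86%, and no difference was tested.

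Cell type markers were looked up in the same way, from a list chosen after the region list had been seen. Among 7 islet genes only Ins2, an insulin gene, had a covered TSS, yet the beta-cell factor genes Mafa and Pdx1 had 41.0 and 38.6 kb covered around them, and Gcg and Sst, the glucagon and somatostatin genes, 2.2 kb each. Among 5 leukocyte genes Cd68, a macrophage marker, had a covered TSS and 23.2 kb, while Ptprc, which encodes CD45, had 3.0 kb and Itgam had no region. Of 3 endothelial genes, Pecam1 (43.2 kb) and Kdr (2.0 kb) had a covered TSS and Cdh5 had no region. The median covered length was 9.0 kb for the islet genes, 6.0 kb for the leukocyte genes and 2.0 kb for the endothelial genes, against 8.2 kb over all protein-coding genes, of which 39.1% had a covered TSS. Since 82.3% of all protein-coding genes had a region, these counts do not set one cell type apart, and the part of each cell type in the regions of the AP-1 genes was not tested.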

How the data were processed

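H3K4me1 was measured by ChIP-seq in 1 library of cytokine treated islets. The authors aligned reads to mm9 with bowtie2 (Bowtie2 2.2.1 in the submitters' processing notes, which also name TopHat2 2.0.11 and Cufflinks 2.2.1) and called enriched regions with ChromHMM, whose version and settings are not given in the sources used here. They deposited the start and end of each of 65709 regions on a 200 bp grid, with no count, score or p-value, so neither depth nor the precision of a region's presence can be given, and edges are resolved to no better than 200 bp. The study's methods describe removing loci of very low enrichment from its list merged over both conditions. Whether that filter was applied to the regions used here is not stated, so a missing region may also have been filtered out.

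From these positions, with 1 added to each start, regions were joined to genes of GENCODE M1 with Python 3.11.15, numpy 2.4.6 and pandas 2.3.3. A TSS was called covered when inside a region, and flanked when uncovered with a region within 2 kb on each side. Covered length counts only bases inside the window. All 10 genes are named, with their 3 widest regions and the region closest to a TSS, related genes by their class, and other genes only where a region overlaps them or lies closest to their TSS. The cell type markers are outside this rule and were chosen after the regions had been seen. For regions at the edge of the reach, 4 lay in its last 2 kb, at 48340 to 49417 bp, and 1, of Jun, lay up to 2 kb outside, at 50462 bp. Atf7 has 2 annotated genes, of which the longer was used. Motifs and CpG ratios were read from the mm9 genome; 65650 regions on the chromosomes used were searched. RefSeq promoters of the GRCm38.p6 table were placed in mm9 by exact match of their sequence, for 9 of the 10 genes. Fosl1 has no entry there, and its GENCODE M1 TSS was used in its place. Counting and matching were tested on simulated data. The rule for the genes uses no measured value, but the genes, the lists and the comparisons were chosen with earlier results of these data known. In the list of kinases, 1 gene is not reported here.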

Additional observations from a re-analysis of the deposited data

How the results depend on the processing

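With the reach set to 20 kb the AP-1 genes had a median of 4.5 regions and 11.5 kb covered (2 regions and 4.0 kb over all protein-coding genes), and with 100 kb 16 regions and 37.9 kb (9 regions and 16.2 kb). Counting only regions whose closest TSS of any transcript was the gene's own gave 1 region, 5.0 kb and 0 flanked genes, and counting only those whose closest protein-coding TSS was its own, an alternative chosen after seeing the data, gave 4.5 regions, 12.4 kb and 1 flanked gene. Over all protein-coding genes both of these rules gave a median of 1 region. The covered length over all genes was not computed under them, so the 5.0 and 12.4 kb have no comparison. The number of flanked genes, reported as 2, was 1 with regions of at least 1000 bp and 0 when the flanks had to lie within 1 kb. It was 3 with the first TSS alone or the TSS of protein-coding transcripts alone. It was also 3 with the RefSeq TSS, where Fosl1, which has none, kept its GENCODE TSS. The number of genes with a covered TSS was 6 or 7 under every alternative run, which included joining regions over gaps of up to 1000 bp, the first TSS alone and, chosen after seeing the data, RefSeq TSS placed by their sequence. The RefSeq run gave 6, which includes Fosl1 through its GENCODE TSS. Of 37 values of summaries under the alternatives 25 stayed within 1.5 times the value reported, and of 100 numbers of regions of single genes 64 did. No paired analysis was possible because only 1 library of the mark was analysed, and no replicate could be left out. Depth could not be varied, since the list holds no counts.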
